A study of Mus musculus with 18 samples.

Results

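The genes described here are 10 interferon-inducible GTPase genes of the mouse, the guanylate binding proteins *Gbp2*, *Gbp3*, *Gbp4*, *Gbp5*, *Gbp6*, *Gbp7*, *Gbp8* and *Gbp9* and the immunity-related GTPases *Irgm1* and *Igtp* (also called *Irgm3*), out of 45706 genes in each table. They were chosen by family name, and the family was selected on a result of these data, the higher *Gbp2* level with ibrutinib after repeat peptide stimulation. Values of that contrast are therefore given as a description, with no p-value, and nothing is read from how many genes pass a threshold in it. The RNA came from purified CD8+ T cells of OT-1 mice, whose T cell receptor recognizes an ovalbumin peptide, cultured with IL-7 and IL-15. Repeat peptide cells received the peptide daily for 5 days, which gives an *in vitro* model of T cell exhaustion, and single peptide cells received it once at the start and were then cultured without it. Between day 5 and day 8 they were given 1 µM ibrutinib, a covalent inhibitor of BTK, or the solvent DMSO. According to the paper, the medium of repeat peptide cells still held the peptide over those days. The drug thus met cells with peptide in one arm and cells without it in the other. Bulk RNA was sequenced from 4 repeat peptide libraries with DMSO (experiments A, B, C and D), 5 repeat peptide libraries with ibrutinib (A to E), 5 single peptide libraries with DMSO (A to D and F) and 4 single peptide libraries with ibrutinib (A to D). All 18 libraries carry the strain entry OT-1 mice WT. Their genotype entry reads as an experiment name, and it names a btk KO in experiments B, C, D and E. It was used here only to tell which libraries belong to the same experiment.

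Guanylate binding proteins are large GTPases that interferons, above all interferon gamma, switch on in nearly every cell type. They assemble on the membranes of vacuoles that hold bacteria or parasites and on bacteria in the cytosol, break them open or mark them for autophagy, and help inflammasomes sense what is released. Immunity-related GTPases are smaller and act on the same vacuoles. *Irgm1* and *Igtp* belong to a regulatory subgroup that sits on the cell's own membranes and keeps the effector GTPases off them, and *Irgm1* is known to protect activated T cells from death caused by interferon gamma. The genes are common readouts of interferon signalling. Promoters that answer to it often hold gamma-activated sites, of the form TTCNNNGAA, and repeats of GAAA, which IRF1 and other interferon regulatory factors bind.

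The genes lie in 3 places of the GRCm38 genome. *Gbp2*, *Gbp3*, *Gbp5* and *Gbp7* form a cluster on the forward strand of chromosome 3 between positions 142493978 and 142638008, and *Gbp4*, *Gbp6*, *Gbp8* and *Gbp9* a cluster on the reverse strand of chromosome 5 between 105014150 and 105293698. *Irgm1* (48861968 to 48871683, reverse strand) and *Igtp* (58199556 to 58207591, forward strand) are both on chromosome 11.

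A RefSeq promoter window was at hand for 6 of the 10 genes, *Gbp2*, *Gbp3*, *Gbp5*, *Gbp7*, *Irgm1* and *Igtp*. The bases just before the annotated start site are shown so that the 2 motifs can be read there (5′ to 3′ on the gene's strand, RefSeq, GRCm38.p6). The last base printed is the one before the RefSeq start site, and the start of the gene in the GENCODE annotation can lie further upstream. Capitals mark GAAANNGAAA and TTCNNNGAA, searched on both strands, so that TTTCNNTTTC is GAAANNGAAA read from the other strand.
Gbp2, chr3:142620543-142620662, forward strand: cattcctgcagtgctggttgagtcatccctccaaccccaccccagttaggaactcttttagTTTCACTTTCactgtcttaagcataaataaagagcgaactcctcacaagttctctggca
Gbp3, chr3:142559924-142560043, forward strand: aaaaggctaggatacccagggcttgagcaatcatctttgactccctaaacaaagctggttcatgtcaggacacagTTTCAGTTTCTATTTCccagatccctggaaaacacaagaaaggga
Gbp5, chr3:142496684-142496933, forward strand: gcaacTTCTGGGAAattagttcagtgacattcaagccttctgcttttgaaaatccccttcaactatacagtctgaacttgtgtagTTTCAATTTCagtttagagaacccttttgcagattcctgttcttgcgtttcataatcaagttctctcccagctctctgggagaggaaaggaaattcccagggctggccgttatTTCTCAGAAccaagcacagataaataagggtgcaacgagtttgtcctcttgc
Gbp7, chr3:142530216-142530335, forward strand: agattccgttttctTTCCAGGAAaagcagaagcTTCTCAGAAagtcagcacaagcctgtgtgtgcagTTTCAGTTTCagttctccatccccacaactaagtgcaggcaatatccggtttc
Irgm1, chr11:48871421-48871540, reverse strand: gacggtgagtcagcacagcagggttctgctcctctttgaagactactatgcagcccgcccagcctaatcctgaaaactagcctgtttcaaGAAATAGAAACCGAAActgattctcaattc
Igtp, chr11:58199436-58199555, forward strand: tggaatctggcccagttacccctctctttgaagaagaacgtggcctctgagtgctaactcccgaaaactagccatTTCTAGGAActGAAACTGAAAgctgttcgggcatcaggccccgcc
All 6 genes held at least 1 GAAANNGAAA within the 250 bases before the start site, against 3.44% of all 32851 windows of 300 bases and 3.99% of the 27025 genes with a window. *Gbp3* and *Irgm1* each held 2 copies that overlap in 4 bases, and the other window of *Gbp3*, at a later start site, held neither motif. *Gbp5* and *Gbp7* each held TTCNNNGAA at 2 places and *Igtp* at 1, against 8.3% of all windows. These 3 genes held both motifs, as did 0.454% of all windows. In *Gbp2*, *Gbp3*, *Gbp7*, *Irgm1* and *Igtp* the GAAANNGAAA matches began between positions -59 and -24 from the start site, and in *Gbp5* at -165. A match describes the letters only. Whether any factor bound there was not measured, and whether the motifs bear on the levels below was not tested.

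Each library held between 23445922 and 51995372 estimated gene counts (median 27420965). The sum of the CD8 T cell markers *Cd8a*, *Cd8b1*, *Cd3e*, *Cd3d*, *Cd3g* and *Trac* lay between 76784 and 125953 normalized counts in every library, and *Cd4* did not exceed 3 counts in any. The sum hides opposite directions. With DMSO, *Cd8b1* averaged 8272 in repeat and 24010 in single peptide cells, and *Cd3g* 16614 and 10426. By the test described below, *Cd8a* and *Cd8b1* were lower and *Cd3e* and *Cd3g* higher in repeat peptide cells with DMSO. These were 2 and 2 of 5 tested, against 24.2% and 22.8% of all tested genes. With ibrutinib *Cd8a* and *Cd8b1* were lower and *Cd3g* higher, against 19.6% and 18.7%. The sum of the B cell markers *Cd79a*, *Cd79b* and *Ms4a1* was 30.6 to 47.9 in repeat peptide cells with DMSO, 20.5 to 80.0 with ibrutinib, 70.7 to 175 in single peptide cells with DMSO and 82.4 to 164 with ibrutinib. Nearly all of it was *Cd79b*, which was lower in repeat than in single peptide cells, as the GTPase genes were with DMSO, with log2 fold changes of -1.56 (SE 0.38, adjusted p = 0.00187) with DMSO and -1.15 (SE 0.35, adjusted p = 0.0138) with ibrutinib, while *Cd79a* was at or under 3 counts in 3 of the 4 groups. The sum of the 7 myeloid and dendritic markers was 81.4 to 163 in repeat peptide cells with DMSO, 83.7 to 205 with ibrutinib, 19.5 to 190.4 in single peptide cells with DMSO and 16.7 to 140.3 with ibrutinib, with *Csf1r* and *Siglech* at or under 3 counts throughout and *Cd14* at 6 to 112 counts in repeat and at most 1 in single peptide cells. *Lyz2* reached 1 and 54 counts in repeat peptide cells with DMSO and ibrutinib, and 113 and 107 in single peptide cells. Its lowest count was 0 in each group. *Cd68* held 26 to 101 and 54 to 206 counts in repeat peptide cells, and 18 to 54 and 8 to 30 in single peptide cells. *Flt3* and *Adgre1* did not exceed 13 and 7 counts. The sum of the NK cell markers *Ncr1* and *Klrb1c* was 103 to 981 in repeat peptide cells and 37.0 to 108 in single peptide cells, nearly all from *Klrb1c*, which CD8 T cells can express. The part of other cells in the values below was not tested. In bulk RNA, fewer cells with a transcript and less of it per cell cannot be told apart.

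All 10 genes were well expressed and passed the filter on low counts. On the TPM scale, which corrects for length and lets genes be compared, their levels added up to 1300 ± 318 (SD, n = 5) in single peptide cells with DMSO, 626 ± 176 (n = 4) in single peptide cells with ibrutinib, 561 ± 108 (n = 4) in repeat peptide cells with DMSO and 911 ± 214 (n = 5) in repeat peptide cells with ibrutinib. Every library of single peptide cells with DMSO was above every library of repeat peptide cells with DMSO and of single peptide cells with ibrutinib. The latter groups overlapped, at 412.7 to 659.8 and 473.5 to 873.5, and repeat peptide cells with DMSO were the higher of them in experiments C and D. Repeat peptide cells with ibrutinib, at 590.8 to 1105, overlapped each of the other groups. The order of the groups was not tested. *Igtp* gave the most in each group, with mean TPM of 411 ± 93.5, 179.9 ± 58.5, 150.0 ± 25.4 and 254 ± 66.5 in the same order. It exceeded the next gene in every library of each group. Behind it came *Gbp2*, *Gbp6*, *Irgm1* and *Gbp4*, whose places changed between groups and whose ranges overlapped from one to the next within each group. In single peptide cells with DMSO their means were 188 ± 64.5, 159 ± 43.9, 154 ± 33 and 137 ± 42.6 TPM. *Gbp7*, *Gbp8*, *Gbp3*, *Gbp9* and *Gbp5* were lower, between 66.5 ± 13.5 and 31 ± 7.73 TPM in those cells, again with ranges that overlapped from one to the next.

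The makeup of the family is given as a description. *Gbp2* supplied 10.3% ± 1.08 (SD, n = 4) of the summed TPM in repeat peptide cells with DMSO and 17.9% ± 2.57 (n = 5) in those with ibrutinib, moving from the fourth to the second place. *Gbp6* supplied 16.4% ± 1.16 and 14.3% ± 1.26 in repeat peptide cells with DMSO and with ibrutinib, but 12.2% ± 1.08 and 9.14% ± 0.84 in single peptide cells. *Irgm1* supplied 14.7% ± 1.3 with DMSO and 10.8% ± 1.21 with ibrutinib in repeat peptide cells. The share of *Igtp* lay between 26.9% ± 1.26 in repeat and 31.7% ± 0.693 in single peptide cells with DMSO.

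**Figure D1:**
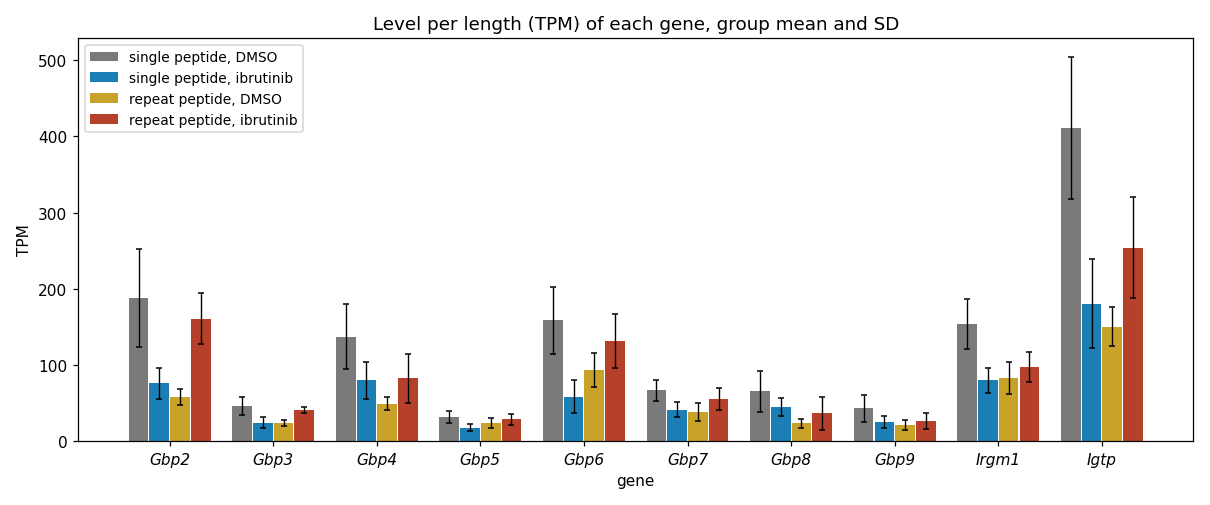
Mean TPM (bars, y axis) of each gene (x axis) in the 4 groups, with the SD over 4 or 5 libraries as error bars. Igtp is the tallest in each group, and every gene has its highest mean in single peptide cells with DMSO.

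Gbp genes have close copies. The share of each transcript's 75-base words that also occur in transcripts of other genes was 86% for *Gbp6*, nearly all of it in Gm43302, a transcript model that spans *Gbp6* and *Gbp10* and was assigned at most 46 counts in a library. It was 11.4% for *Gbp7* and 8.37% for *Igtp* (in *Irgm2*), between 2.68% and 7.97% for *Gbp3*, *Gbp4*, *Gbp8* and *Gbp9*, and below 1% for *Gbp2* and *Gbp5*. *Irgm1* shared no such word. *Gbp4*, *Gbp8* and *Gbp9* also overlap in position on chromosome 5. How reads were divided among these genes is uncertain, so the sums over the Gbp genes of each chromosome are given below beside the single genes.

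The comparison of ibrutinib with DMSO in single peptide cells asks what the drug does to these genes where the peptide had been withdrawn. It shares no library with the contrast that chose *Gbp2*, although the spread was estimated over all 4 groups. All 10 genes had lower fitted levels with ibrutinib, and 8 of 10 were called lower (edgeR quasi-likelihood test, Benjamini-Hochberg adjusted p under 0.05 over all 12255 tested genes, a log2 fold change beyond 0.2 in either direction and 50 or more normalized counts on average), against 2.69% of all tested genes called lower and 0.351% called higher. The 8 genes were *Gbp2*, *Gbp3*, *Gbp4*, *Gbp5*, *Gbp6*, *Gbp7*, *Irgm1* and *Igtp*. In these 8 genes every library with ibrutinib was below every library with DMSO in normalized counts, as in 3.42% of all tested genes. On the TPM scale the groups of *Gbp4* overlapped, at 55.94 to 110.8 with ibrutinib and 99.8 to 206.2 with DMSO. The median log2 fold change of the 10 genes was -0.81, and that of all tested genes was 0.01.

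*Gbp6*, a chromosome 5 GBP found on parasite vacuoles, had the lowest log2 fold change of the 10. Its normalized counts (counts scaled to a common library size) were 15853, 9117, 11070, 11988 and 11475 in single peptide cells with DMSO (experiments A, B, C, D and F) and 6191, 3960, 3658 and 4539 with ibrutinib (A, B, C and D). Every library with ibrutinib lay below every library with DMSO. The means were 11901 ± 2462 (SD, n = 5) and 4587 ± 1130 (SD, n = 4), a 2.59-fold fall with a log2 fold change of -1.38 (SE 0.18, adjusted p = 0.00105). *Gbp2*, a chromosome 3 GBP that coats parasite vacuoles and cytosolic bacteria, had 13457, 7480, 16161, 11871 and 7068 normalized counts with DMSO and 5864, 3425, 5172 and 4589 with ibrutinib. The groups did not overlap, although the libraries with DMSO ranged from 7068 to 16161. The log2 fold change was -1.23 (SE 0.23, adjusted p = 0.00655), with a 95% interval of -1.71 to -0.76.

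*Igtp*, a GTPase of the endoplasmic reticulum needed for resistance to *Toxoplasma*, went from 22254, 14899, 20280, 18367 and 15747 normalized counts with DMSO to 10919, 7062, 7586 and 7796 with ibrutinib. The lowest library with DMSO was above the highest with ibrutinib, and the log2 fold change was -1.13 (SE 0.16, adjusted p = 0.00137). *Irgm1*, the regulator of the effector immunity-related GTPases, went from 7262, 4601, 7755, 7236 and 5150 to 3947, 2655, 3349 and 3638. Its groups did not overlap either, and its log2 fold change was -0.91 (SE 0.17, adjusted p = 0.00655). In each of these 4 genes experiment A had the highest library with ibrutinib.

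Of the other GBP genes, *Gbp3* fell from 2939 ± 730.0 (SD, n = 5) to 1614 ± 298 (SD, n = 4) normalized counts, a log2 fold change of -0.86 (SE 0.17, adjusted p = 0.00882). *Gbp5*, a GBP known to promote inflammasome assembly, fell from 2344 ± 444 (SD, n = 5) to 1383 ± 209 (SD, n = 4), with a log2 fold change of -0.76 (SE 0.18, adjusted p = 0.025). *Gbp7*, which brings oxidase and autophagy proteins to bacterial vacuoles, fell from 7531 ± 1106 (SD, n = 5) to 4902 ± 448 (SD, n = 4), with a log2 fold change of -0.62 (SE 0.15, adjusted p = 0.0322). The groups did not overlap in any of these 3 genes. *Gbp4* lay at 11547 ± 3119 (SD, n = 5) and 7018 ± 1445 (SD, n = 4), close to the threshold, with a log2 fold change of -0.72 (SE 0.19, adjusted p = 0.0489). The remaining chromosome 5 genes did not pass the test. *Gbp9* had a log2 fold change of -0.62 (SE 0.21, adjusted p = 0.151) and *Gbp8* one of -0.44 (SE 0.25, adjusted p = 0.484), with 95% intervals of -1.07 to -0.18 and -0.96 to 0.08, and both had overlapping groups.

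Within the 4 experiments that had both treatments, all 40 ratios of ibrutinib over DMSO (10 genes in 4 experiments) were below 1 in single peptide cells, between -1.64 and -0.18 on the log2 scale, with a median of -0.85. The ratios of *Gbp6* were -1.36, -1.20, -1.60 and -1.40 in experiments A, B, C and D, and those of *Gbp2* were -1.20, -1.13, -1.64 and -1.37. Both were steady, whereas *Gbp8* had -0.86, -0.21, -0.25 and -0.18, with the lowest value in experiment A. The genes of 1 experiment share their libraries and are not independent of each other. The same ratios of all tested genes were not counted. *Gbp2*, *Gbp3*, *Gbp6*, *Irgm1* and *Igtp* kept their calls when any 1 of the 18 libraries was left out. *Gbp5* lost its call without single peptide DMSO library A or C or ibrutinib library B, C or D, with adjusted p up to 0.0809. *Gbp7* lost it without any 1 of those 5, DMSO library D or ibrutinib library A, with adjusted p up to 0.0866. *Gbp4* lost it in 14 of the 18 such fits, with adjusted p from 0.0319 to 0.15, and kept it only without repeat peptide ibrutinib library B, C or E or single peptide ibrutinib library A. The number called was 5 without DMSO library A or C or ibrutinib library B, C or D, where 1.17% to 2.53% of all tested genes were called lower. Summed over the Gbp genes of a chromosome, mean normalized counts went from 24021 ± 5888 to 12662 ± 1756 on chromosome 3 and from 33601 ± 8263 to 17599 ± 3579 on chromosome 5 (DMSO and ibrutinib, SD, n = 5 and 4), log2 ratios of -0.92 and -0.93.

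**Figure D2:**
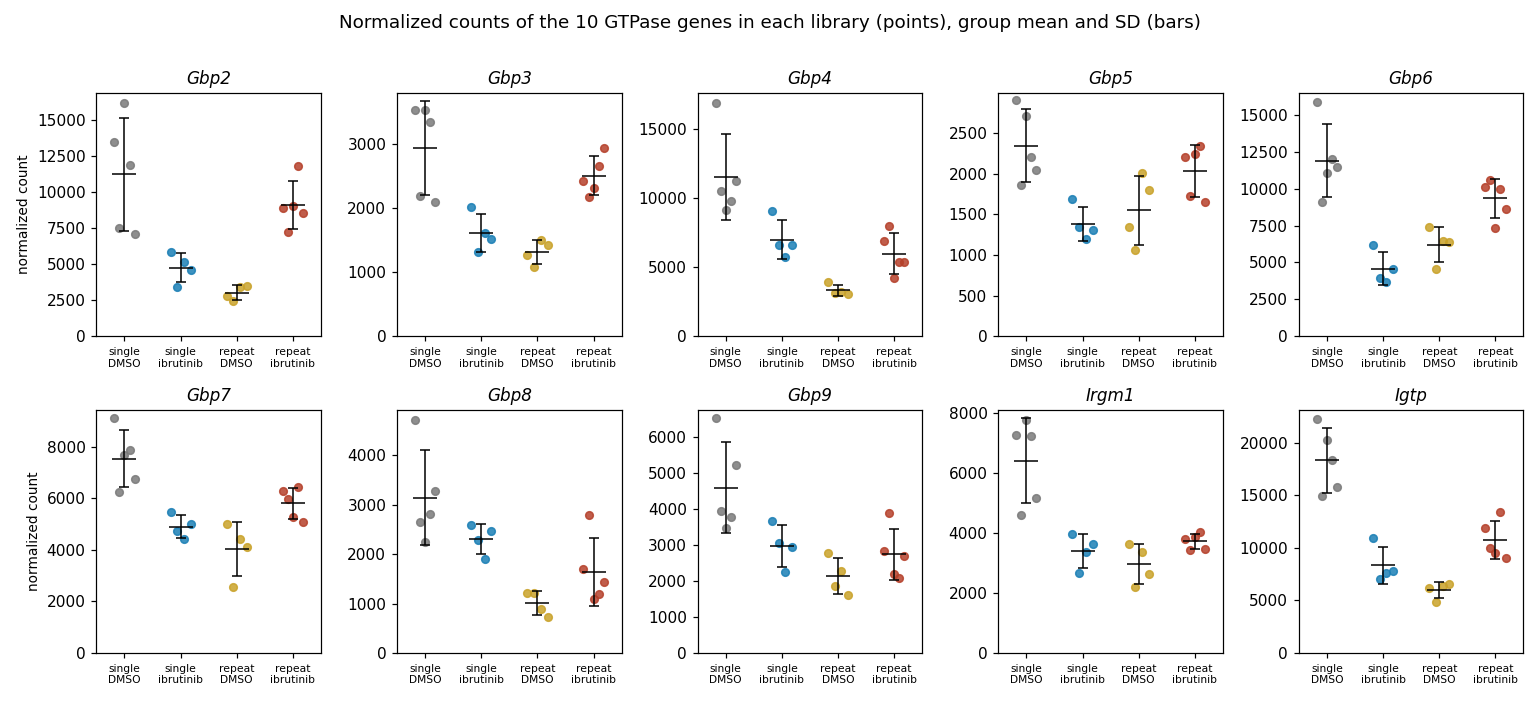
Normalized counts (y axis, from 0) of the 10 genes in each library (points) of the 4 groups (x axis), with the group mean and SD as black bars. In single peptide cells the libraries with ibrutinib lie below those with DMSO without overlap in 8 genes, as in 3.42% of all tested genes.

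In repeat peptide cells all 10 genes had higher fitted levels with ibrutinib than with DMSO. The family was chosen from this contrast, so its values are a description of levels. For completeness, 5 of 10 genes (*Gbp2*, *Gbp3*, *Gbp4*, *Gbp7* and *Igtp*) lay past the thresholds of the other comparisons in the higher direction, where 4.01% of all tested genes did so and 1.92% in the lower direction. The same 5 genes had groups that did not overlap in normalized counts, as did 4.64% of all tested genes in that direction. On the TPM scale library E with ibrutinib lay within the range with DMSO for 3 of them. These were *Igtp* (153.3, against 112.7 to 169.0), *Gbp4* (49.64, against 37.58 to 55.51) and *Gbp7* (33.62, against 21.79 to 49.46). The thresholds include an adjusted p under 0.05. Passing them is no test in the contrast that chose the family, so nothing is read from either count.

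*Gbp2* had 2786, 2445, 3417 and 3463 normalized counts with DMSO (experiments A, B, C and D) and 8906, 7256, 8997, 11780 and 8519 with ibrutinib (A, B, C, D and E). The lowest library with ibrutinib held more than double the counts of the highest with DMSO. The means were 3028 ± 496 (SD, n = 4) and 9092 ± 1656 (SD, n = 5), 3-fold apart, with a log2 fold change of 1.59 (SE 0.23). The ratios within experiments were 1.68, 1.57, 1.40 and 1.77 on the log2 scale, the highest of the 10 genes in each of A, B, C and D. *Gbp3* came next, with 1272, 1079, 1503 and 1428 and then 2423, 2182, 2323, 2661 and 2947 normalized counts and a log2 fold change of 0.92 (SE 0.17). *Igtp* had 6154, 4880, 6335 and 6555 with DMSO and 11846, 10011, 9542, 13357 and 9053 with ibrutinib, a log2 fold change of 0.85 (SE 0.16). In both genes, as in *Gbp2*, the groups were apart in normalized counts.

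*Gbp4*, described as a brake on the interferon factor IRF7, had 3927, 3171, 3195 and 3070 with DMSO and 6904, 8014, 4213, 5357 and 5397 with ibrutinib, a log2 fold change of 0.84 (SE 0.19). *Gbp7* had 5003, 2555, 4421 and 4128 and 6286, 5975, 5290, 6421 and 5063, a log2 fold change of 0.53 (SE 0.15). Their groups did not overlap in normalized counts. In *Gbp7*, however, the highest library with DMSO, A, lay just below the lowest with ibrutinib, E. Its ratio was largest in experiment B, where the library with DMSO was low. The other 5 genes had overlapping groups and smaller or more variable differences. Their log2 fold changes were 0.69 (SE 0.25) for *Gbp8*, 0.59 (SE 0.18) for *Gbp6*, 0.39 (SE 0.18) for *Gbp5*, 0.36 (SE 0.21) for *Gbp9* and 0.33 (SE 0.17) for *Irgm1*.

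Of the 40 within-experiment ratios in repeat peptide cells 39 were above 1, with a median of 0.67 on the log2 scale, and the exception was *Gbp9* in experiment C at -0.06. Here too the ratios of all tested genes were not counted, and nothing is read from the 39. Experiment B had the highest median over the 10 genes, 1.13, and experiment C the lowest, 0.27, against 0.59 in A and 0.67 in D. The library with DMSO of experiment B had the lowest level among the 4 for 7 of the 10 genes (*Gbp2*, *Gbp3*, *Gbp5*, *Gbp6*, *Gbp7*, *Irgm1* and *Igtp*). The summed Gbp genes went from 9928 ± 1894 to 19440 ± 2321 on chromosome 3 and from 13468 ± 2122 to 21110 ± 4060 on chromosome 5 (SD, n = 4 and 5), log2 ratios of 0.97 and 0.65.

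Side by side, the log2 fold changes with ibrutinib were above 0 after repeat and below 0 after single stimulation for all 10 genes. *Gbp6* held the largest fall in single peptide cells and only the sixth largest difference in repeat peptide cells, and *Irgm1*, with the fourth largest fall, was last in repeat peptide cells. *Gbp2* was first in one and second in the other. The difference between the stimulations was not tested, because the rule used one side of it.

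**Figure D3:**
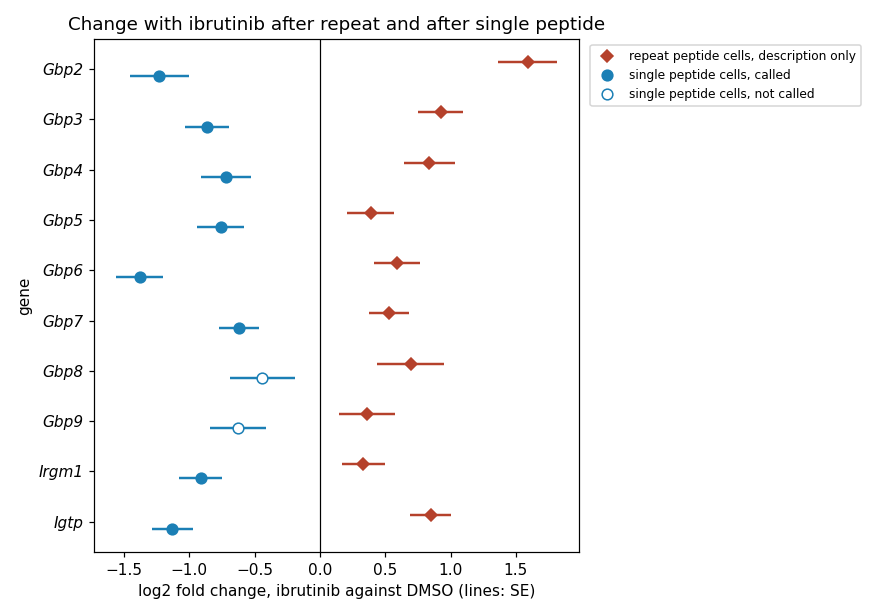
Log2 fold change with ibrutinib against DMSO (x axis, points) and its SE (lines) for each gene (y axis), in repeat (red diamonds, a description only) and single (blue circles, filled where the gene was called) peptide cells. Points lie right of 0 in repeat and left of 0 in single peptide cells for all 10 genes.

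**Figure D4:**
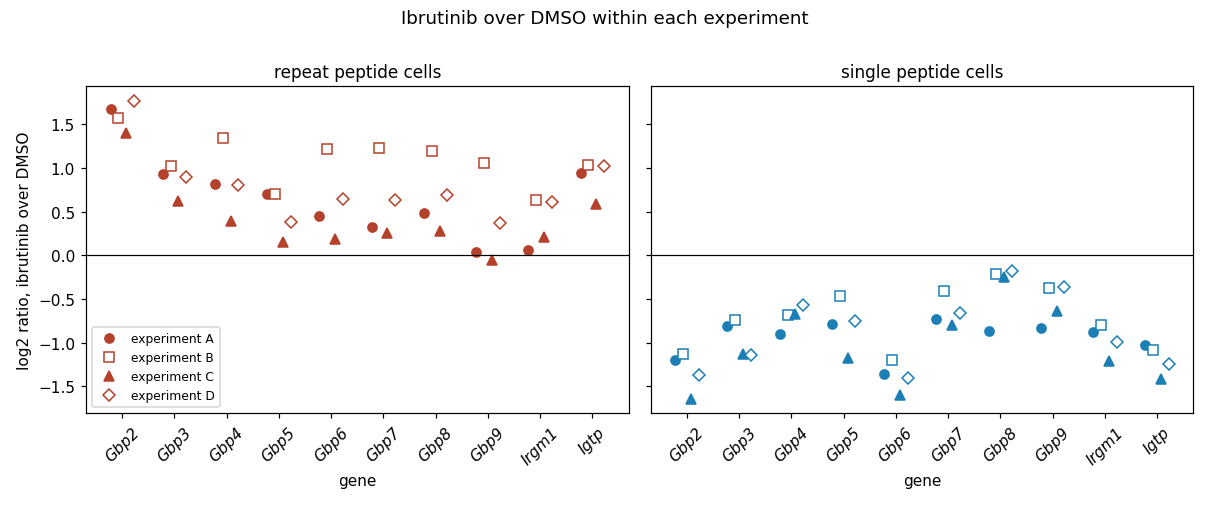
Log2 ratio of the library with ibrutinib over the library with DMSO of the same experiment (y axis) for each gene (x axis), in repeat (left) and single (right) peptide cells, with 1 symbol for each of experiments A to D. Of 40 ratios, 39 are above 0 on the left and all 40 are below 0 on the right. Ratios of other genes were not counted.

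The comparisons of repeat with single peptide cells ask how repeat stimulation relates to these genes. They hold both the earlier stimulation and the peptide still present up to day 8, which cannot be told apart. Each uses libraries that also enter the 2 ibrutinib contrasts, and the repeat peptide libraries also entered the choice of the family. That choice favours a low *Gbp2* level in repeat peptide cells with DMSO and a high one with ibrutinib. The p-values of these comparisons, above all those of *Gbp2*, are therefore not free of it. With DMSO all 10 genes were called lower in repeat than in single peptide cells, where 24.2% of all tested genes were called lower and 22.8% higher. *Gbp2* had 2445 to 3463 normalized counts in repeat and 7068 to 16161 in single peptide cells, a 3.7-fold lower level with a log2 fold change of -1.89 (SE 0.23, adjusted p = 2.63e-06). *Gbp4* had 3070 to 3927 and 9157 to 16941, a log2 fold change of -1.79 (SE 0.20, adjusted p = 9.41e-07). *Igtp* had 4880 to 6555 and 14899 to 22254, a log2 fold change of -1.61 (SE 0.16, adjusted p = 2.33e-07). In each of these genes the highest repeat peptide library was far below the lowest single peptide library.

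*Gbp8* had 736 to 1214 in repeat and 2253 to 4725 in single peptide cells with DMSO, and a log2 fold change of -1.63 (SE 0.26, adjusted p = 4.54e-05). *Irgm1* had 2210 to 3643 and 4601 to 7755, with a log2 fold change of -1.11 (SE 0.17, adjusted p = 2.55e-05). *Gbp8* and *Gbp9*, which did not pass the test for ibrutinib in single peptide cells, were thus called here, *Gbp9* with a log2 fold change of -1.11 (SE 0.22, adjusted p = 0.000324). *Gbp3*, *Gbp6* and *Gbp7* had log2 fold changes of -1.15 (SE 0.17), -0.94 (SE 0.18) and -0.90 (SE 0.15). *Gbp5* had the smallest difference, -0.59 (SE 0.18, adjusted p = 0.00907), and was the one gene whose groups overlapped in normalized counts. Those of the other 9 were apart, as in 19.1% of all tested genes in that direction. On the TPM scale those of *Gbp9* overlapped as well, at 16.29 to 29.46 in repeat and 27.4 to 70.93 in single peptide cells. All 10 calls held when any 1 library was left out.

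With ibrutinib 4 of 10 genes were called higher in repeat than in single peptide cells, where 18.7% of all tested genes were called higher and 19.6% lower. *Gbp6* had 7363 to 10568 normalized counts in repeat and 3658 to 6191 in single peptide cells, a log2 fold change of 1.02 (SE 0.18, adjusted p = 0.000173). *Gbp2* had 7256 to 11780 and 3425 to 5864, a log2 fold change of 0.93 (SE 0.22, adjusted p = 0.00249). *Gbp3* and *Gbp5* had log2 fold changes of 0.64 (SE 0.17, adjusted p = 0.00558) and 0.56 (SE 0.18, adjusted p = 0.0174). The groups were apart in *Gbp6*, *Gbp2* and *Gbp3*, 3 of 10 against 18% of all tested genes in that direction, and overlapped in *Gbp5*. The other 6 genes did not pass the test. *Igtp* had a log2 fold change of 0.37 (SE 0.15, adjusted p = 0.0628) and *Gbp7* one of 0.24 (SE 0.15, adjusted p = 0.205), and with the experiment as a block they were called higher, at 0.43 (SE 0.11, adjusted p = 0.00282) and 0.29 (SE 0.12, adjusted p = 0.0465). *Igtp* was also called when repeat peptide DMSO library B, ibrutinib library B or E, single peptide DMSO library B or ibrutinib library A was left out, with adjusted p from 0.00942. *Irgm1* had a log2 fold change of 0.13 (SE 0.16) with a 95% interval of -0.21 to 0.48. *Gbp4*, *Gbp8* and *Gbp9* lay on the other side of 0, at -0.23 (SE 0.19), -0.49 (SE 0.25) and -0.12 (SE 0.21), and *Gbp8* was called lower when repeat peptide ibrutinib library B was left out, with an adjusted p of 0.00813. The fitted values were thus above 0 for the 4 genes on chromosome 3 and below 0 for those on chromosome 5 other than *Gbp6*, a difference between genes that was not tested. Summed over each cluster, the log2 ratio was 0.62 on chromosome 3 and 0.26 on chromosome 5.

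The other genes of the 2 families were looked at next. *Gbp10*, the neighbour of *Gbp6*, fell with ibrutinib in single peptide cells from 2638, 904, 1713, 1800 and 1444 to 360.3, 231, 214 and 224 normalized counts, a 6.6-fold fall with a log2 fold change of -2.72 (SE 0.33, adjusted p = 0.000507), further than any of the 10 genes. In repeat peptide cells it had 754, 237, 818 and 693 with DMSO and 745, 836, 649, 1036 and 826 with ibrutinib, with overlapping groups. *Gbp11*, annotated as a polymorphic pseudogene and not tested, had 157, 161, 135 and 156 and 719, 679, 366, 492 and 769 in the same cells, where the groups were apart. In single peptide cells *Gbp11* had 473 to 1139 with DMSO and 323.6 to 673.2 with ibrutinib, and the groups overlapped. *Gbp2b* did not exceed 6 counts in any library. A list of 15 other GTPase genes held immunity-related GTPases and *Gvin1*, a very large inducible GTPase. Of them 13 were tested, and 3 were called lower with ibrutinib in single peptide cells (against 2.69% of all tested genes), *Iigp1*, Gm4951 and Gm12185. *Iigp1*, an effector that tears open parasite vacuoles, had 2470 to 4956 normalized counts with DMSO and 763 to 1328 with ibrutinib, a log2 fold change of -2.05 (SE 0.31, adjusted p = 0.0019). Gm4951 and Gm12185 had log2 fold changes of -2.33 (SE 0.56, adjusted p = 0.0264) and -0.92 (SE 0.25, adjusted p = 0.0494). The calls of *Gbp10* and *Iigp1* held when any 1 library was left out, that of Gm12185 was lost in 14 of 18 such fits, and that of Gm4951 without single peptide DMSO library C or D or any 1 library of single peptide cells with ibrutinib (adjusted p up to 0.0931). With the experiment as a block 7 of 13 were called lower, *Irgm2*, *Ifi47*, *Tgtp1* and *Tgtp2* in addition, where the share of all tested genes was 6.32%. The count was 1 without single peptide DMSO library C or D or ibrutinib library B, C or D. In repeat peptide cells *Iigp1* had 362 to 1053 with DMSO and 1704 to 3632 with ibrutinib, without overlap. Between repeat and single peptide cells 10 of 13 were called lower with DMSO (against 24.2% of all tested genes), in each fit without 1 library as well. With ibrutinib 2 were called higher (*Iigp1*, Gm12185) and 2 lower (*Irgq*, *Gvin1*), shares near the 18.7% and 19.6% of all tested genes. *Irgq* lost its call in 9 of 18 fits without 1 library, and without single peptide ibrutinib library A *Gvin1* lost it too, which left 0 lower. The number lower was 1 without repeat peptide DMSO library D, repeat peptide ibrutinib library C, D or E, single peptide DMSO library B or single peptide ibrutinib library B or C, and 4 without repeat peptide ibrutinib library A. With the block 3 were higher and 5 lower, where 22.5% and 26% of all tested genes were.

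The RNA levels of interferon gamma pathway genes did not all move in the same direction. *Ifng*, the interferon gamma gene itself, had 429, 530.2, 892 and 1174 normalized counts in repeat peptide cells with DMSO and 95.8, 162, 205, 273 and 361 with ibrutinib, where the groups were apart. In single peptide cells it had 91.2, 5.41, 52.2, 30.6 and 51.1 with DMSO and 1.9, 2.81, 13.9 and 13.3 with ibrutinib, near the lower end of detection. The cells with the most *Ifng* RNA were those with DMSO after repeat stimulation, whose summed TPM of the 10 GTPase genes lay below that of single peptide cells with DMSO and overlapped that of single peptide cells with ibrutinib. These data hold RNA only, and how *Ifng* or its receptor relates to the GTPase genes was not tested. *Ifng* was higher in repeat than in single peptide cells by 4.04 (SE 0.55, adjusted p = 7.93e-06) on the log2 scale with DMSO and by 4.77 (SE 0.67, adjusted p = 1.82e-05) with ibrutinib, and it fell with ibrutinib in single peptide cells, with a log2 fold change of -2.51 (SE 0.68, adjusted p = 0.0494) and a call that was lost in 14 of the 18 fits without 1 library (adjusted p up to 0.18). *Ifngr2*, the signalling chain of the receptor, ran the other way between repeat and single peptide cells. With ibrutinib in single peptide cells it was not called, with a log2 fold change of -0.02 (SE 0.24, adjusted p = 0.991). It had 67.5, 51.3, 52.4 and 58.7 in repeat peptide cells with DMSO, 187, 75.1, 87.3, 175 and 109.5 with ibrutinib, and 268 to 422 and 219 to 356 in single peptide cells with DMSO and with ibrutinib. With DMSO it was lower in repeat than in single peptide cells by a log2 fold change of -2.46 (SE 0.27, adjusted p = 7.76e-07).

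*Irf1*, a transcription factor that interferon gamma induces and that binds GAAA repeats, had 8211 ± 1899, 5050 ± 896, 2822 ± 541 and 4807 ± 637 normalized counts (SD) in single peptide cells with DMSO and ibrutinib and repeat peptide cells with DMSO and ibrutinib. It fell in single peptide cells with a log2 fold change of -0.70 (SE 0.16, adjusted p = 0.0236). *Irf8*, like *Ifng*, was highest in repeat peptide cells with DMSO, at 3177 to 4542 and was 1364 to 2230 with ibrutinib, and 262 to 700.4 and 48.7 to 91.8 in single peptide cells. Of the 11 interferon gamma pathway genes tested, 4 were called lower with ibrutinib in single peptide cells (against 2.69% of all tested genes), *Cd274*, *Irf1*, *Irf8* and *Ifng*. *Irf8* and *Cd274* kept the call when any 1 library was left out, and *Irf1* lost it without single peptide DMSO library C or ibrutinib library B or D (adjusted p up to 0.0874), where 2 of 11 were called. With DMSO 8 were called lower in repeat than in single peptide cells and 2 higher (*Ifng*, *Irf8*), against 24.2% and 22.8% of all tested genes, and *Ifngr1* was not called without repeat peptide DMSO library D. With ibrutinib 3 were higher and 2 lower, against 18.7% and 19.6%, and no fit without 1 library changed these calls.

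Of the 7 type I interferon pathway genes tested, 1 was called lower with ibrutinib in single peptide cells, *Irf7* with a log2 fold change of -0.79 (SE 0.18, adjusted p = 0.0189), and 2 with the block, against 2.69% and 6.32% of all tested genes. *Irf7* was not called without single peptide ibrutinib library B (adjusted p = 0.0622). With DMSO 4 were lower and 1 higher in repeat than in single peptide cells, against 24.2% and 22.8% of all tested genes. *Ifnar1*, *Stat2* and *Usp18* each lost this call in 6 of 18 fits without 1 library, and without repeat peptide DMSO library A, C or D or single peptide DMSO library A or B all of them did, which left 2 lower and 0 higher. Without single peptide DMSO library F 2 were lower and 1 higher, and without single peptide DMSO library C 4 were lower and 0 higher. With ibrutinib 1 was lower (*Irf9*), against 19.6% of all tested genes, or 2 with the block, against 26%, and 0 were without single peptide ibrutinib library A or D. *Ifnb1* did not exceed 1 count in any library. Of 14 genes that work with these GTPases in autophagy and inflammasomes, 0 were called with ibrutinib in single peptide cells by edgeR, where 4 had an unadjusted p under 0.05, 1 was called by DESeq2, 2 with the block and 1 (*Atg12*, higher) without repeat peptide ibrutinib library E. Between repeat and single peptide cells with DMSO 3 were higher and 3 lower, near the 22.8% and 24.2% of all tested genes. Among the higher genes were *Aim2*, the cytosolic DNA sensor that Gbp proteins assist, with a log2 fold change of 2.51 (SE 0.23, adjusted p = 9.57e-08), and *Casp4*, the sensor of bacterial lipopolysaccharide, with one of 1.73 (SE 0.33, adjusted p = 0.000228). *Gsdmd*, the pore protein that these sensors activate, was lower in repeat peptide cells, with a log2 fold change of -0.66 (SE 0.10, adjusted p = 1.68e-05). With ibrutinib 4 were higher and 3 lower, where 18.7% and 19.6% of all tested genes were. *Atg16l1* lost its call with DMSO in 4 of 18 fits without 1 library, and with ibrutinib *Map1lc3b* lost its call in 3, *Casp1* in 2 and *Atg16l1* in 1.

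**Figure D5:**
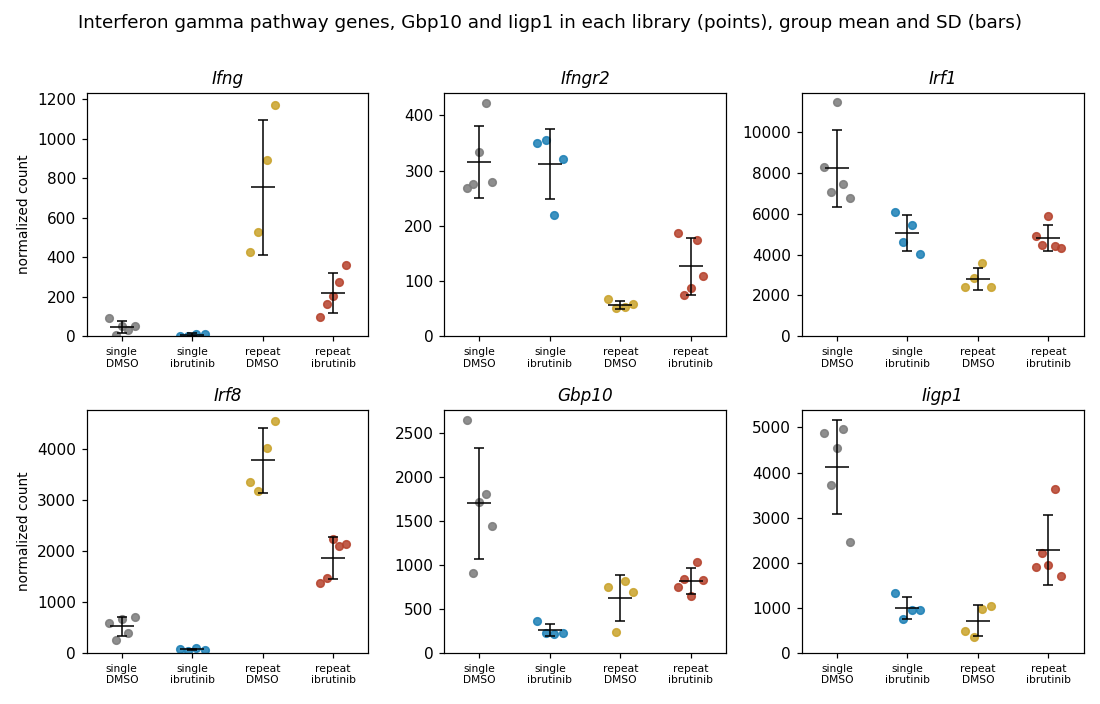
Normalized counts (y axis, from 0) of Ifng, Ifngr2, Irf1, Irf8, Gbp10 and Iigp1 in each library (points) of the 4 groups (x axis), with the group mean and SD as black bars. Ifng and Irf8 are highest in repeat peptide cells with DMSO, where Ifngr2, Irf1 and Iigp1 have their lowest mean. Gbp10 has its lowest mean in single peptide cells with ibrutinib.

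How the 10 genes varied among libraries of the same group was also described. After each group's mean was removed from the log2 CPM values, the correlation between pairs of the 10 genes over the 18 libraries ranged from -0.31 (*Gbp2* with *Gbp8*) to 0.90 (*Gbp2* with *Gbp3*), with a median of 0.55 over 45 pairs. *Gbp6*, *Igtp* and *Gbp7* followed the mean of the other genes most closely (r = 0.93, 0.84 and 0.83) and *Gbp8* least (r = 0.24). The libraries share experiments, and without the 2 libraries farthest from the median, single peptide DMSO A and B, r was 0.90 for *Gbp6* and 0.00298 for *Gbp8*. Single peptide DMSO library A stood above and B below its group for most of the genes, with median deviations of 0.33 and -0.30 on the log2 scale. The 5 other tested genes whose deviations were most like the mean of the 10 included *Lrp1* (r = 0.88), *Gbp10* (r = 0.87), *Daxx* (r = 0.84) and *Invs* (r = 0.82), over the same 18 libraries. Without those 2 libraries r was 0.82, 0.82, 0.88 and 0.74. *Lrp1* held between 0 and 35.3 normalized counts, so its likeness rests on few reads. *Daxx* and *Invs* were not called with ibrutinib in single peptide cells, unlike *Gbp10*.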

How the data were processed

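Bulk RNA-seq of 18 OT-1 CD8+ T cell cultures was analysed. The authors trimmed reads with Trim Galore, aligned them with STAR to GRCm38 and quantified them with RSEM 1.3.1, and the deposited tables hold an expected count and a TPM value for each gene. Genes were matched to GENCODE M21 by identifier, and the 27903 protein-coding or lncRNA genes (98.5% of counts) were kept. Expected counts were rounded, filtered with filterByExpr (12255 genes tested), scaled by TMM and tested with edgeR 4.0.16 (R 4.3.3) in 1 quasi-likelihood fit of all 4 groups, which was tested on simulated data. The 10 genes and all lists were chosen with earlier results of these data known. Genes named are the 10, list genes called in the comparison described, and the 5 tested genes most like the 10. *Gbp2b*, *Gbp11*, *Ifnb1* and list genes given beside a group where they were not called were named after their values were seen. The labels do not say whether experiments used separate mice, so p-values measure the spread between these libraries. Libraries of 1 experiment deviated together across groups, with r from 0.16 to 0.494 (median 0.325) over 24 pairs. The 97 pairs from different experiments had r from -0.44 to 0.404 (median -0.0765), so the ranges overlapped. The experiments were taken to pair the libraries, and the experiment was added as a block in an alternative fit. Other alternatives were DESeq2 1.42.0, its size factors, no filter, an effective-length offset, only the compared groups, adjusted p alone, TPM, summed Gbp genes and leaving out each library. Some items, left out of the lists and their counts, are not reported here. Promoter windows came from RefSeq (GRCm38.p6).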

Additional observations from a re-analysis of the deposited data

Results flagged for a closer look

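For 9 of the 10 genes, all except *Gbp9*, the library with ibrutinib was above the library with DMSO in each of experiments A to D after repeat stimulation and below it in each of them after single stimulation. The log2 fold change in repeat minus that in single peptide cells was 2.82 for *Gbp2*, 1.98 for *Igtp*, 1.96 for *Gbp6*, 1.79 for *Gbp3*, 1.56 for *Gbp4*, 1.25 for *Irgm1*, 1.15 for *Gbp5*, 1.15 for *Gbp7* and 1.13 for *Gbp8*. This difference was not tested, since 1 of its sides was in view when the family was chosen. The share of all tested genes with opposite directions in every experiment is not given, and the 10 genes share their libraries. Nothing is read from the count of 9.

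Of 40 groups of libraries examined for a sample that stands apart (10 genes in 4 groups), 1 had one by Dixon's 95% criterion, where chance gives about 1 in 20. *Gbp4* was at 3927 normalized counts in the repeat peptide DMSO library of experiment A, above the other 3 at 3070 to 3195.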

How the results depend on the processing

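For ibrutinib in repeat peptide cells passing the thresholds is no test, and nothing is read from the counts. With the experiment as a replicate block, 9 of 10 genes lay past them there in place of 5. The share of all tested genes called higher there went from 4.01% to 8.47%. With the block *Igtp* and *Gbp7* were called higher in repeat than in single peptide cells with ibrutinib. The block changed no other call of the 10 genes. Leaving out 1 library at a time gave 3 to 6 genes for ibrutinib in repeat peptide cells (3 without repeat peptide DMSO library D, where the share of all tested genes fell to 2.11%), 5 to 8 for ibrutinib in single peptide cells, 10 in each fit for repeat against single with DMSO, and 4 to 6 with ibrutinib. Over the 6 settings that kept all libraries, 227 of 240 results for single genes kept their call. *Gbp4* was not called in single peptide cells without the filter on low counts or with only the compared groups fitted, and *Igtp* was called in repeat against single peptide cells with ibrutinib by DESeq2 and with its size factors. *Gbp9* in repeat against single peptide cells with ibrutinib, not called, ranged from -0.254 (without repeat peptide ibrutinib library B) to 0.0216 (without single peptide ibrutinib library A) and so changed sign. For ibrutinib in repeat peptide cells, a description only, *Gbp7* was not past the thresholds in 11 of the 18 fits without 1 library or with only the compared groups fitted, and *Gbp6* was past them in 6 of 18, by DESeq2 and with only the compared groups fitted. The cause of these changes was not tested. Summing the Gbp genes of a chromosome or using TPM changed the sign of no called gene. Reads shared among Gbp copies limit how far values belong to 1 gene.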
